A study of Rattus norvegicus with 10 samples.

Results

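The livers of rats hold macrophages, endothelial cells and stellate cells beside the hepatocytes, and this account follows 44 genes that mark those cells. The list names 16 macrophage genes, 11 endothelial genes and 17 genes of stellate cells and matrix. A probe set, the group of array probes that reads a transcript, was taken when the platform annotation gave it exactly 1 gene symbol and that symbol was on the list. This gave 51 probe sets for 41 of the 44 genes, out of 9378 genes so represented on the array. Marco, Cdh5 and Vwf had no such probe set, so their signal was not analysed here. The values come from 10 Affymetrix arrays, 1 for each liver. In the RG3487 group, 5 rats of the strain CRL:WI (Han), aged 6 to 8 weeks, received RG3487, a partial agonist of a nicotinic acetylcholine receptor, at 180 mg/kg by gavage, and in the vehicle group 5 rats of the same strain and age received deionized water. The labels put the harvest at 24 h after the dose for both groups, whereas the series text names 2 h. The sources used here do not give the sex of the rats or the scan date, and cages of 5 may coincide with the groups, so that cage and treatment cannot be told apart.

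Kupffer cells are the resident macrophages of the liver sinusoid. They clear particles, complement-coated debris and haemoglobin from portal blood and sense bacterial products. Sinusoidal endothelial cells are fenestrated scavenger cells that take up hyaluronan and small immune complexes. Stellate cells lie between endothelium and hepatocytes, store vitamin A as retinyl esters and, once activated after injury, make fibrillar collagen.

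Many macrophage genes are transcribed with the ETS factor PU.1, whose binding sites often hold the letters GAGGAA. The promoters of the 2 macrophage members that fell with the smallest p, Cd14 and Cd163, and of the macrophage member that rose, Lyz2, are shown from the RefSeq table (build GRCr8) in the direction of the gene, with GAGGAA on either strand in capitals. Each window runs from 250 bases before to 50 bases after an annotated start. Cd14 lies at chr18:28611109-28611408 on the minus strand, Cd163 at chr4:158770524-158770823 on the plus strand and Lyz2 at chr7:54797962-54798261 on the minus strand.
Cd14: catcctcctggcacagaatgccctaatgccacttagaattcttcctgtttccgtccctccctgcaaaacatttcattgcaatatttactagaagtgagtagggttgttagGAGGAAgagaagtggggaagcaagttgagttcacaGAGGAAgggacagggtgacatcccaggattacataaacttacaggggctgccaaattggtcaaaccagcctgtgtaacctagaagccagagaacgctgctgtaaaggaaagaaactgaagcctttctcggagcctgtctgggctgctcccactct
Cd163: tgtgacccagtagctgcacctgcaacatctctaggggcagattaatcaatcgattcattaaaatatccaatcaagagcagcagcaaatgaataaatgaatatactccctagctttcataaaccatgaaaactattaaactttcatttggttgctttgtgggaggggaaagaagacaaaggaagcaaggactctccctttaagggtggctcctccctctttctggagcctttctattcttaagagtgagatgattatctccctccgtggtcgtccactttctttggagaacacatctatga
Lyz2: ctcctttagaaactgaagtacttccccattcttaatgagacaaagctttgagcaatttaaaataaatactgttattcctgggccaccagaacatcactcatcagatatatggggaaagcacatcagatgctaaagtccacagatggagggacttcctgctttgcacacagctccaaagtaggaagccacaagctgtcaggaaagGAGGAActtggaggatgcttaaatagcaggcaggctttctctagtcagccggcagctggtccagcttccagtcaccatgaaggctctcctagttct
The Cd14 window held the letters 2 times and the Lyz2 window 1 time, so a gene that fell and a gene that rose both carried them, and the Cd163 window held 0. The table had promoters for 29 of the 44 genes, in 30 windows. The letters stood in 9 of 12 windows of macrophage genes (75%), in 3 of 6 of endothelial genes (50%), in 2 of 12 of stellate and matrix genes (16.7%) and in 9239 of all 33469 windows (27.6%). No other motif was searched.

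Most of these markers differed little between the groups, and those that differed were mostly lower with RG3487, except when arrays were scaled to hybridization controls (3 lower and 6 higher). The largest decrease was that of Cd14, the receptor chain that binds bacterial lipopolysaccharide, which was 40.6% lower, followed by the matrix proteoglycan gene Dcn (30.4% lower). The largest increase was that of the lysozyme gene Lyz2 (57.1% higher). All changes and percentages are on the scale of log2(signal + 16), RG3487 over vehicle, tested with limma over 11894 probe sets, with p adjusted by Benjamini-Hochberg and 0.05 as the limit for a call. In bulk liver, fewer cells of a type and less RNA per cell cannot be told apart.

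Of the 51 probe sets, 45 of 38 genes were bright enough to be tested. The 6 dim ones were the only probe sets of Des, Acta2 and Pdgfrb and a second probe set each of Ptprc, Reln and Col1a1. Of the 45, 7 passed as lower and 2 as higher. That is 20% called, against 27.7% of all probe sets tested. By direction, 15.6% of the marker probe sets were lower, against 7.16% of all, and 4.44% were higher, against 20.5% of all. The groups did not overlap for 5 of the 45, in each case with the RG3487 livers lower, against 4.48% of all probe sets that separated as lower and 18.4% that separated in either direction. The median change was -0.10 over the markers and 0.08 over all probe sets tested, and 36 of the 45 lay below the median of all.

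**Figure D1:**
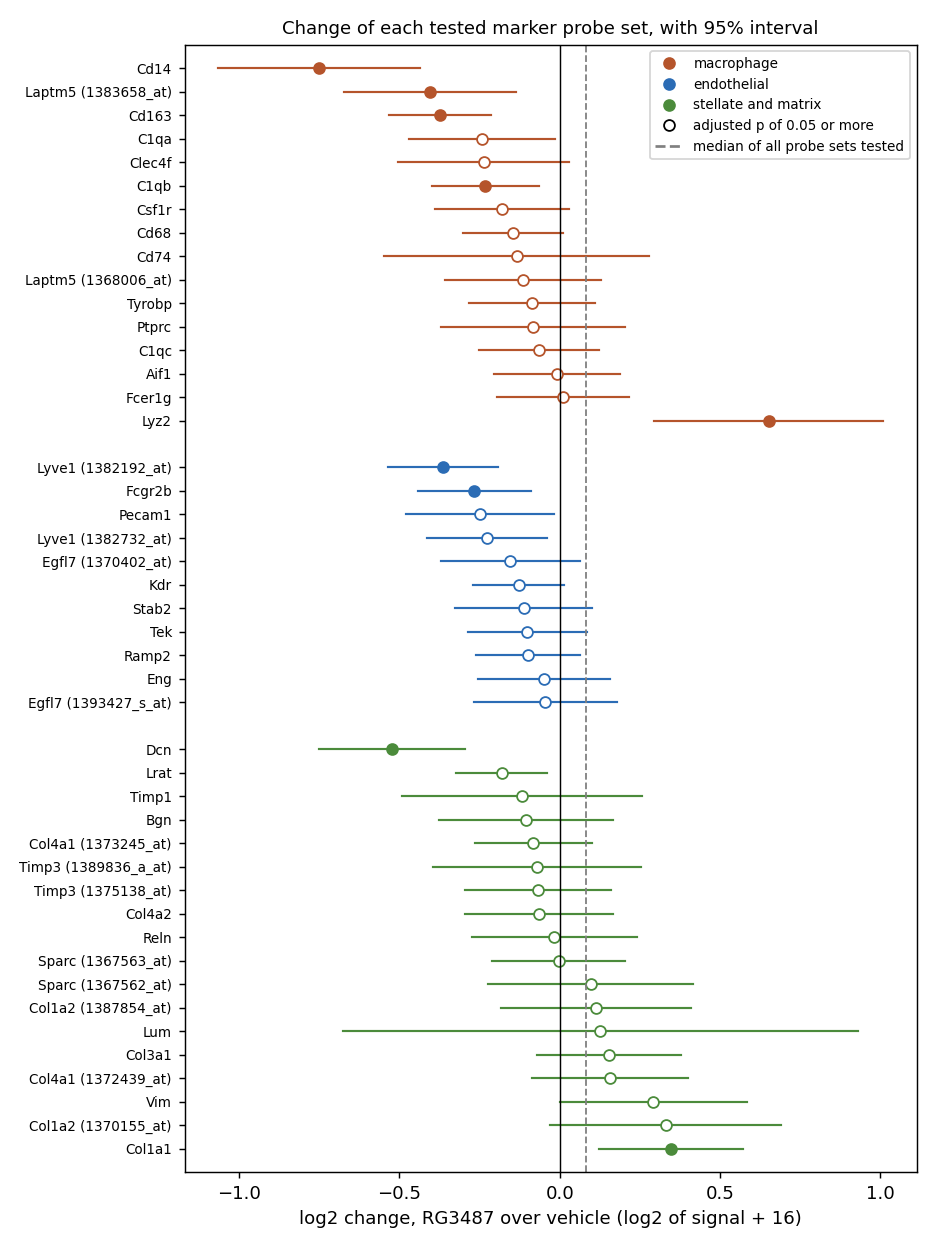
Log2 change of signal (x axis, RG3487 over vehicle, log2 of signal plus 16) for the 45 tested marker probe sets, grouped by class, with 95% intervals from limma that are not adjusted for multiple tests. Filled points passed at an adjusted p under 0.05 (7 lower, 2 higher), and the dashed line is the median of all probe sets tested, 0.08. With scaling to hybridization controls the counts were 3 lower and 6 higher.

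The arrays as a whole bear on these directions. Their mean signals lay between 329.96 and 331.76. The median signal was 94.8 ± 1.6 with RG3487 and 89.0 ± 3.2 with vehicle (SD, n = 5 each; exact two-sided permutation p = 0.0159, adjusted over 3 array measures 0.0239). The hybridization controls, foreign transcripts added before hybridization, averaged 9.71 ± 0.03 with RG3487 and 9.90 ± 0.03 with vehicle on the log2 scale (n = 5 each; exact permutation p = 0.00794, adjusted 0.0238). Hepatocyte markers, of which 22 of 24 had a probe set, summed to signals of 142233 to 167151 with RG3487 and 167350 to 179836 with vehicle. Of their 28 probe sets, 13 were lower (46.4%, against 7.16% of all probe sets) and 3 higher (10.7%, against 20.5% of all). The lower ones were of 11 genes and the higher ones of 1 gene, Hnf4a. By the smallest p, Ambp, a plasma protein precursor, changed by -0.27 ± 0.04 (SE, adjusted p = 0.00112), Ass1, an enzyme of the urea cycle, by -0.30 ± 0.07 (0.0062) and Hnf4a, a hepatocyte transcription factor, by 0.29 ± 0.06 (0.00653). The part of these changes in the marker results was not tested.

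Among macrophage genes, 4 of 16 tested probe sets fell and 1 rose. This is 25% lower and 6.25% higher, against the 7.16% and 20.5% of all probe sets. Their median change was -0.14 (0.04 with scaling to hybridization controls), and 14 of the 16 changes were negative. Cd14 read 1001, 1070, 1191, 922 and 614 in the RG3487 livers, against 1694, 1660, 1575, 1334 and 1709 in the vehicle livers. Every RG3487 liver lay below every vehicle liver, and RG3487 animal 5 was the lowest. The means were 959.6 ± 217 and 1594 ± 155 (SD, n = 5 each), a log2 change of -0.75 ± 0.15 (SE, adjusted p = 0.00301). Cd14 is also made by hepatocytes.

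Cd163, the macrophage scavenger receptor for haemoglobin bound to haptoglobin, separated the groups as well. It read 122, 132, 102, 118 and 129 with RG3487, against 163, 168, 157, 158 and 156 with vehicle. Vehicle livers lay within 12 units of each other, all above the RG3487 livers. The log2 change was -0.37 ± 0.07 (adjusted p = 0.00316). Cd14 and Cd163 passed in each of the 23 alternative settings tried.

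Lyz2, the lysozyme gene of rodent macrophages and granulocytes, went the other way. Its signal was 1139, 877, 857, 1347 and 1214 with RG3487, against 697, 540, 529, 937 and 749 with vehicle. In each group animals 2 and 3 were lowest and animal 4 highest, and vehicle animal 4 read higher than RG3487 animals 2 and 3. The log2 change was 0.65 ± 0.16 (adjusted p = 0.0122). The exact rank-sum test did not call it (adjusted p = 0.1, range 0.000508 to 0.1 over the alternatives). Rodents carry closely related lysozyme genes, and whether this probe set also reads a relative was not tested.

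Laptm5, a lysosomal membrane protein of leukocytes, gave different answers from its 2 probe sets. The probe set 1383658_at read 63, 81, 49, 78 and 55 with RG3487, against 78, 98, 106, 93 and 79 with vehicle, and passed (-0.41 ± 0.12, adjusted p = 0.0289). The groups overlapped only through RG3487 animals 2 and 4. The probe set 1368006_at did not pass, with a change of -0.11 ± 0.11 (adjusted p = 0.477). The call of the first was lost without RG3487 animal 1, 3 or 5 (adjusted p = 0.0535, 0.0558 and 0.0703) and without vehicle animal 2, 3 or 4 (0.0613, 0.0649 and 0.0568; range over all alternatives 0.0134 to 0.137).

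The 3 chains of C1q, the recognition unit of classical complement that liver macrophages secrete, are encoded by adjacent genes. C1qb read 378, 373, 354, 419 and 395 with RG3487, against 473, 491, 388, 491 and 430 with vehicle. Only vehicle animal 3 fell within the range of the RG3487 livers. Its change of -0.23 ± 0.08 passed (adjusted p = 0.0403), whereas C1qa changed by -0.24 ± 0.11 (0.103) and C1qc by -0.06 ± 0.09 (0.607). C1qa read 612.6 ± 90.5 with RG3487 and 726.2 ± 92.5 with vehicle, and C1qc 314.6 ± 40.1 and 328.2 ± 22.1 (SD, n = 5). The C1qb call was lost without any 1 of RG3487 animals 1, 2, 3 and 5 or vehicle animals 1, 2 and 4 (adjusted p = 0.0617 to 0.092; range over all alternatives 0.00698 to 0.656). C1qa passed as lower without RG3487 animal 4 (-0.32, adjusted p = 0.0302; range 0.0302 to 0.712).

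The macrophage markers Clec4f, Csf1r and Cd68 did not pass. Clec4f, a lectin receptor that rodent Kupffer cells carry, read 743, 974, 707, 892 and 800 with RG3487, against 848, 1204, 854, 835 and 1159 with vehicle. RG3487 animals 2 and 4 overlapped the vehicle livers, and the change was -0.24 with a 95% interval of -0.50 to 0.03 (adjusted p = 0.167). Csf1r, the receptor for the growth factor that macrophages depend on, read 113, 152, 136, 169 and 132 with RG3487, against 158, 171, 167, 140 and 165 with vehicle. Vehicle animal 4 was the low liver of its group and RG3487 animal 4 the high one of the other, and the change was -0.18 (95% interval -0.39 to 0.03, adjusted p = 0.182). The lysosomal glycoprotein gene Cd68 read 208.0 ± 15.1 with RG3487 and 231.8 ± 18.5 with vehicle (change -0.15, interval -0.30 to 0.01, adjusted p = 0.151). Cd68 passed as lower with quantile normalization (-0.25, adjusted p = 0.0178) and with centred arrays (-0.22, adjusted p = 0.0311), in a range of 0.0178 to 0.692 over the alternatives.

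The remaining macrophage and leukocyte genes did not pass, with changes between -0.13 and 0.01 at their tested probe sets. The signalling adaptors of activating immune receptors, Fcer1g and Tyrobp, changed by 0.01 (95% interval -0.20 to 0.22) and -0.09 (-0.28 to 0.11). Aif1, a calcium-binding protein of macrophages, read 134.8 in both groups (SD 19.5 with RG3487 and 8.23 with vehicle). Ptprc, which encodes the leukocyte antigen CD45, changed by -0.08 (-0.37 to 0.20), and its dim probe set, 27.6 ± 8.9 with RG3487 and 22.2 ± 8.8 with vehicle, was not tested. Cd74, the invariant chain of class II antigen presentation, spread most within the RG3487 group, where it read 553, 1093, 524, 986 and 901, against 874, 945, 725, 980 and 774 with vehicle. Its change was -0.13 with an interval of -0.55 to 0.28.

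**Figure D2:**
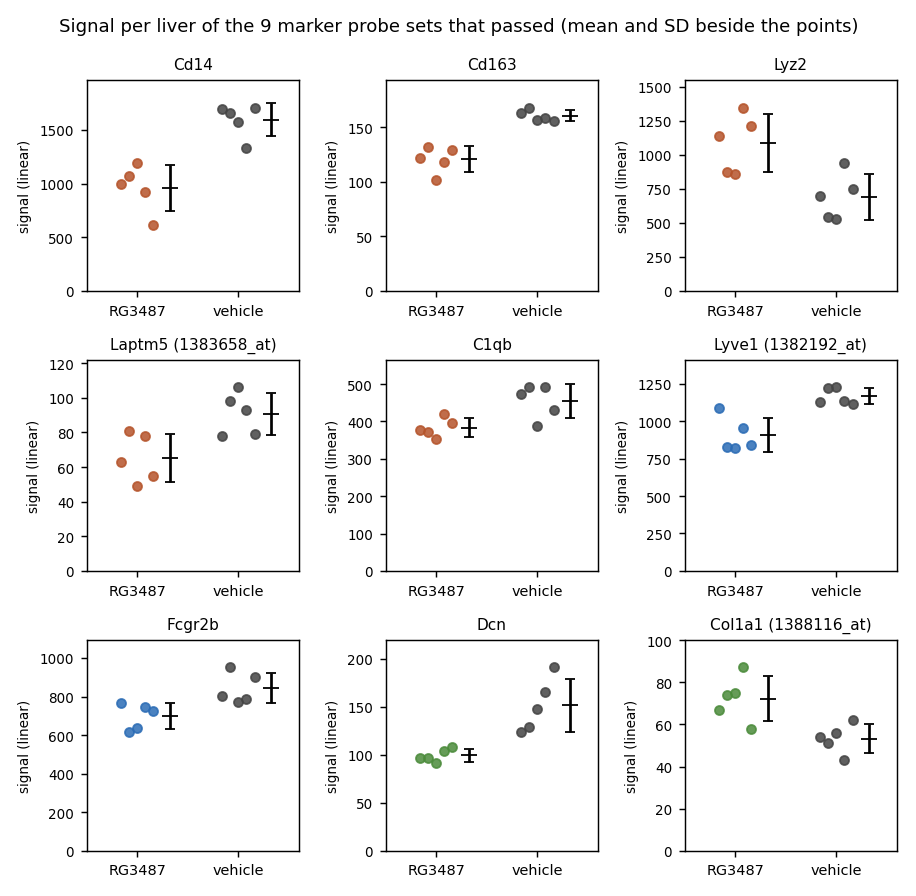
Signal (linear scale, axis from 0) in each liver for the 9 marker probe sets that passed, RG3487 left and vehicle right, with the mean and SD of 5 livers beside the points. Cd14, Cd163, Lyve1, Fcgr2b and Dcn separate the groups without overlap, and Lyz2 and Col1a1 are the 2 that are higher with RG3487.

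Among endothelial genes, 2 of 11 tested probe sets fell (18.2%, against 7.16% of all) and 0 rose (against 20.5% of all). At an unadjusted p under 0.05 limma gave 4 lower and 0 higher, beside 1334 lower and 3516 higher of all 11894 probe sets. The exact rank-sum test, limited to groups without overlap, called 2 lower and 0 higher, beside 533 and 1654 of all. All 11 changes were negative, between -0.36 and -0.04, with a median of -0.13, which was 0.06 with scaling to hybridization controls. Lyve1, a hyaluronan receptor of sinusoidal and lymphatic endothelium, read 1089, 829, 823, 955 and 838 at 1382192_at with RG3487, against 1130, 1223, 1225, 1135 and 1115 with vehicle. RG3487 animal 1 came within 26 units of the lowest vehicle liver, and the other RG3487 livers lay well below. The change was -0.36 ± 0.08 (22.3% lower, adjusted p = 0.00562). The second probe set, 1382732_at, read 563, 473, 460, 618 and 491 with RG3487, against 639, 659, 618, 553 and 579 with vehicle, and did not pass (-0.23 ± 0.09, adjusted p = 0.068). It passed without RG3487 animal 4 (-0.29, adjusted p = 0.0229; range over the alternatives 0.0155 to 0.757).

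Fcgr2b, the inhibitory receptor for immune complexes, which sinusoidal endothelium carries in quantity, separated the groups narrowly. It read 769, 616, 637, 747 and 724 with RG3487, against 804, 951, 774, 787 and 901 with vehicle, so that RG3487 animal 1 lay just below vehicle animal 3. The change of -0.27 ± 0.08 passed (adjusted p = 0.0289) but not without RG3487 animal 2 or 3 or vehicle animal 2 or 5 (adjusted p = 0.0691, 0.056, 0.0675 and 0.0638; range over all alternatives 0.00886 to 0.456). Other Fc receptor genes are similar in sequence, and whether the probe set reads them was not tested.

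Stab2, the main hyaluronan scavenger receptor of the sinusoid, read 219, 272, 224, 228 and 244 with RG3487, against 249, 329, 219, 249 and 251 with vehicle. The groups overlapped, and the change was -0.11 (95% interval -0.33 to 0.10, adjusted p = 0.421). Pecam1, a junction protein of all endothelium, read 51, 59, 47, 54 and 42 with RG3487, against 72, 65, 56, 74 and 50 with vehicle. Its change of -0.25 (-0.48 to -0.02, adjusted p = 0.0997) passed without vehicle animal 5 (-0.31, adjusted p = 0.0465; range 0.0379 to 0.467).

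None of the receptors for vascular growth factors passed. Kdr, a receptor for vascular endothelial growth factor, read 764, 671, 719, 706 and 712 with RG3487, against 743, 813, 771, 710 and 879 with vehicle. Apart from RG3487 animal 1, its values with RG3487 lay in the lower part of the vehicle range or below it, and the change was -0.13 (-0.27 to 0.01, adjusted p = 0.164). Tek, the angiopoietin receptor, changed by -0.10 (-0.29 to 0.09), and Eng, a co-receptor for transforming growth factor beta, by -0.05 (-0.26 to 0.16). Ramp2, which completes the adrenomedullin receptor, changed by -0.10 (-0.26 to 0.06). Egfl7, a factor that endothelium secretes, changed by -0.15 (-0.37 to 0.06) and -0.04 (-0.27 to 0.18) at its 2 probe sets.

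**Figure D3:**
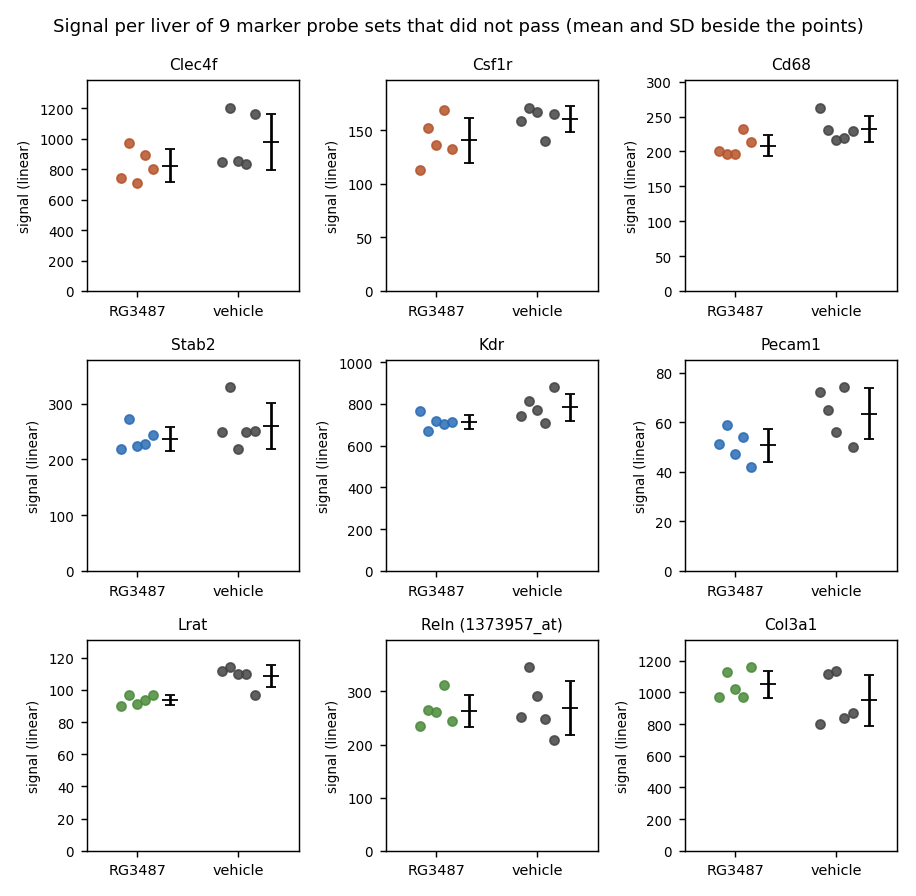
Signal (linear scale, axis from 0) in each liver for 9 marker probe sets that did not pass, 3 of each class, RG3487 left and vehicle right, with the mean and SD of 5 livers beside the points. The groups overlap in every panel.

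Among stellate and matrix genes, 1 of 18 tested probe sets fell and 1 rose, 5.56% in each direction, against 7.16% and 20.5% of all. Their median change was -0.01, and 0.18 with scaling to hybridization controls. Dcn, a small proteoglycan that coats collagen fibrils and binds transforming growth factor beta, read 97, 97, 91, 104 and 108 with RG3487, against 124, 129, 148, 165 and 191 with vehicle. The groups did not overlap, and the vehicle livers spread over a wider range than the RG3487 livers. The change was -0.52 ± 0.10 (adjusted p = 0.00354) and passed in all 23 alternatives. Lum, its neighbour on the chromosome and a proteoglycan of the same family, read 47, 79, 89, 77 and 74 with RG3487, against 16, 143, 129, 69 and 38 with vehicle. Its change of 0.13 had a 95% interval of -0.68 to 0.93, the widest among the tested markers. Bgn, the third member of this family listed, changed by -0.10 (-0.38 to 0.17).

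Fibrillar collagen genes, the main products of activated stellate cells, had positive changes at their 4 tested probe sets, and 1 of these passed. Col1a1 read 67, 74, 75, 87 and 58 at 1388116_at with RG3487, against 54, 51, 56, 43 and 62 with vehicle. RG3487 animal 5 lay below vehicle animal 5, and the others did not overlap. The change of 0.35 ± 0.10 passed (adjusted p = 0.0267), but not without RG3487 animal 2 or 4 or vehicle animal 2 or 4 (adjusted p = 0.0544, 0.0658, 0.0523 and 0.0623; range over all alternatives 0.00198 to 0.0858). Its dimmer probe set, 39.8 ± 4.9 with RG3487 and 31.2 ± 8.1 with vehicle, was not tested. Col1a2 changed by 0.33 (-0.03 to 0.69, adjusted p = 0.154) and 0.11 (-0.18 to 0.41) at its 2 probe sets. Col3a1 read 1050 ± 87 with RG3487 and 950.2 ± 161 with vehicle (SD, n = 5) and changed by 0.15 (-0.07 to 0.38, adjusted p = 0.289).

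Basement membrane collagens lie along the sinusoid and are encoded by the adjacent genes Col4a1 and Col4a2. The Col4a1 probe sets changed by 0.16 (-0.09 to 0.40) and -0.08 (-0.26 to 0.10) and so differed in sign, and Col4a2 changed by -0.06 (-0.30 to 0.17). None of these 3 passed. Sparc, a collagen-binding matrix protein, changed by 0.10 (-0.22 to 0.42) and 0.00 (-0.21 to 0.21) at its 2 probe sets. Among inhibitors of matrix metalloproteinases, Timp1 changed by -0.12 (-0.49 to 0.26) and Timp3 by -0.07 at both of its probe sets (-0.30 to 0.16 and -0.40 to 0.25).

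Genes of quiescent stellate cells showed small differences. Lrat, which makes the retinyl esters stored in these cells, read 90, 97, 91, 94 and 97 with RG3487, against 112, 114, 110, 110 and 97 with vehicle. Vehicle animal 5 equalled the highest RG3487 livers, and the other vehicle livers lay above all of them. The change of -0.18 ± 0.07 did not pass (adjusted p = 0.0578) and passed without vehicle animal 5 (-0.22, adjusted p = 0.0332; range 0.00767 to 0.891). Reln, a secreted glycoprotein that marks stellate cells in rat liver, read 234, 265, 261, 312 and 244 at 1373957_at with RG3487, against 251, 345, 291, 248 and 209 with vehicle. The RG3487 range lay inside the wider vehicle range, with a change of -0.02 (-0.27 to 0.24, adjusted p = 0.932).

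Cytoskeletal markers of stellate cells and myofibroblasts were mostly dim. Des, the muscle-type filament used to find stellate cells in rats, read 20, 19, 18, 19 and 16 with RG3487, against 26, 40, 26, 15 and 17 with vehicle. Acta2, the smooth muscle actin of myofibroblasts, read 41, 38, 38, 28 and 23 with RG3487, against 27, 34, 40, 33 and 27 with vehicle. Both overlapped between the groups and were too dim to be tested, as was Pdgfrb, a growth factor receptor of these cells (27.4 ± 5.2 with RG3487 and 27.6 ± 6.3 with vehicle). Vim, a filament protein of most cells that are not epithelial, read 208.2 ± 42.1 with RG3487 and 166.0 ± 27.2 with vehicle (0.29, interval -0.00 to 0.58, adjusted p = 0.123). It passed as higher without RG3487 animal 3 (0.38, adjusted p = 0.047; range 0.0137 to 0.313).

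Second lists of markers of the same cells were read beside these. Of 20 tested probe sets from a second list of endothelial genes, 2 fell (10%, against 7.16% of all) and 0 rose (against 20.5% of all), with a median change of -0.16. At an unadjusted p under 0.05 limma gave 5 lower and 0 higher. The exact rank-sum test, limited to groups without overlap, called 1 lower and 0 higher. The 2 that fell by limma were Gpr182, a receptor of sinusoidal endothelium that read 60.2 ± 5.0 with RG3487 and 78.0 ± 4.9 with vehicle (-0.30 ± 0.07, adjusted p = 0.0109), and Dnase1l3, a secreted nuclease (-0.20 ± 0.07, adjusted p = 0.0403). The other probe set of Gpr182 did not pass (-0.20 ± 0.07, adjusted p = 0.0575). Against 27.7% of all probe sets called, a second list of macrophage genes had 0 calls among 20 tested probe sets by limma and by the exact rank-sum test, with 4 at an unadjusted p under 0.05 and a median change of -0.08. A second list of stellate and matrix genes had 0 among 24 by both tests, with 1 at an unadjusted p under 0.05 and a median of -0.02. Genes of macrophage activation, such as cytokines, had 0 among 8 by both tests, with 1 at an unadjusted p under 0.05, and 7 of the 18 listed had no probe set of their own.

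Markers of further cell types that a piece of liver can hold were thinly covered. Lymphocyte markers had probe sets for 4 of 22 genes, whose signals summed to 151 to 213 with RG3487 and 203 to 240 with vehicle, and 1 probe set was tested and did not pass. Of neutrophil markers only S100a9 had one, at 26.4 ± 10.7 with RG3487 and 31.2 ± 10.1 with vehicle, too dim to be tested. Erythroid markers, Hbb and Alas2, did not pass (adjusted p = 0.131 and 0.174). Bile duct markers had 2 higher calls among 6 tested probe sets (33.3%, against 20.5% of all) and 0 lower (against 7.16% of all). Both higher calls were of 1 gene, Anxa4, a membrane-binding annexin of epithelia (0.32 ± 0.08 and 0.21 ± 0.07). The duct keratin gene Krt19 read 20.0 ± 6.2 with RG3487 and 14.8 ± 6.0 with vehicle and was not tested. Their part in the marker results was not tested.

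The animals differed in whole classes of markers. The mean log2 signal over the 16 macrophage probe sets was 8.01, 8.18, 7.92, 8.32 and 8.07 in the RG3487 livers, against 8.27, 8.29, 8.19, 8.21 and 8.27 in the vehicle livers. RG3487 animal 4 was the highest of all 10 and RG3487 animal 3 the lowest, and the SD between animals was 0.15 with RG3487 and 0.04 with vehicle. Within the RG3487 group, animal 4 had the highest signal in 11 of the 16 probe sets and animal 3 the lowest in 11. The endothelial mean was 7.91, 7.76, 7.72, 7.82 and 7.83 with RG3487, against 8.01, 8.06, 7.94, 7.91 and 7.95 with vehicle. RG3487 animal 1, the highest of its group in 7 of 11 probe sets, was the only treated liver to reach the vehicle range. With each array's mean over all probe sets taken off, RG3487 animal 4 lay at 0.60 for macrophage genes. Vehicle animals 2 (0.63) and 5 (0.67) then lay higher. For endothelial genes RG3487 animal 1 (0.19) then stayed below the lowest vehicle liver (0.28).

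The stellate and matrix mean was 7.16, 7.27, 7.16, 7.27 and 7.28 with RG3487, against 7.12, 7.33, 7.36, 7.18 and 7.04 with vehicle. Here the SD between animals was 0.06 with RG3487 and 0.14 with vehicle, and all RG3487 livers lay inside the vehicle range. Vehicle animals 2 and 3 had the highest signal in 5 and 7 of the 18 probe sets. Among RG3487 livers the highest mean was that of animal 4 for macrophage, animal 1 for endothelial and animal 5 for stellate and matrix genes, while animal 3 was lowest for all 3 classes. Among vehicle livers animal 2 was highest for both macrophage and endothelial genes and animal 3 for stellate and matrix genes. RG3487 animal 3 also had the lowest mean over all probe sets among the RG3487 livers (7.68). With that mean of each array taken off, animal 1 was the lowest RG3487 liver for stellate and matrix genes (-0.56, against -0.53 in animal 3). The highest was then animal 2 (-0.44, against -0.45 in animal 5). These means are descriptions, with no test.

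**Figure D4:**
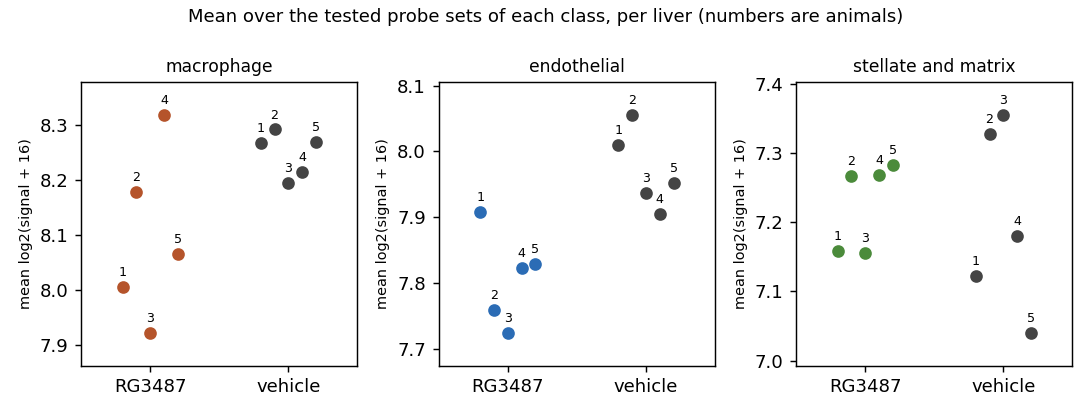
Mean log2(signal + 16) over the tested probe sets of each class (16 macrophage, 11 endothelial, 18 stellate and matrix; separate y axes) in each liver, RG3487 left and vehicle right, with the animal's number above each point. On the deposited scale macrophage means spread more among RG3487 livers, stellate and matrix means more among vehicle livers, and endothelial means meet only at RG3487 animal 1 and vehicle animal 4.

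Which markers counted as changed depended on how arrays were put on a common scale. With quantile normalization 11 of the 45 marker probe sets were lower and 1 higher, and with arrays centred on their median again 11 and 1, against 10% lower and 12% higher of all probe sets under the first and 11.2% and 11.4% under the second. With scaling to the hybridization controls 3 were lower and 6 higher, against 3.18% and 51.7% of all. That scaling assumes that equal amounts of control were added to every sample, which was not tested, and it moved the median of all probe sets from 0.08 to 0.25. Cd14, Cd163 and Dcn were lower and Lyz2 higher under each of the 4 scalings. Lyve1, Fcgr2b, Laptm5 and C1qb were not called with control scaling (adjusted p = 0.105, 0.456, 0.137 and 0.656). Col1a1 was not called with quantile normalization (adjusted p = 0.0569) or centred arrays (0.0858), and with control scaling Vim, Col1a2, Col3a1 and Col4a1 (1372439_at) joined it as higher (changes of 0.47, 0.50, 0.35 and 0.32). C1qa passed as lower with quantile normalization (adjusted p = 0.0407) and Pecam1 with centred arrays (0.0379). Cd68, the second Lyve1 probe set and Lrat passed as lower under both (adjusted p with quantile normalization 0.0178, 0.0159 and 0.00767, and with centred arrays 0.0311, 0.0155 and 0.0101).

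Centring shifts all probe sets of an array by 1 constant, and control scaling nearly so, which leaves the distance of a class from all probe sets in place by construction. Of the scalings, only quantile normalization could change that distance freely. The macrophage median lay 0.22 below that of all probe sets as deposited and 0.24 below it with quantile normalization. The endothelial median lay 0.21 below under both, and that of stellate and matrix genes 0.09 below as deposited and 0.12 below with quantile normalization. Hepatocyte markers had a median change of -0.14 as deposited, which also lay 0.22 below that of all probe sets. With control scaling the class medians were 0.04, 0.06 and 0.18 for macrophage, endothelial and stellate and matrix genes, beside a median of all probe sets that the same scaling moved to 0.25.

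**Figure D5:**
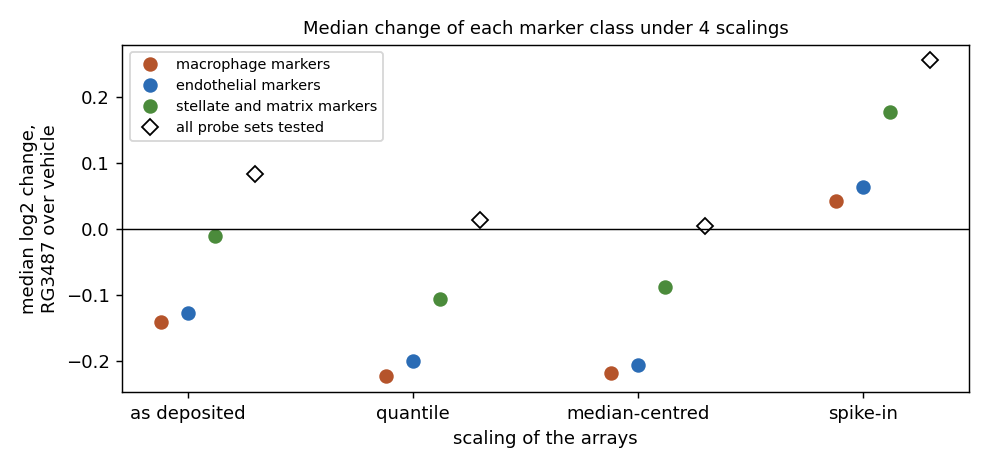
Median log2 change (y axis, RG3487 over vehicle) of the tested probe sets of each class (filled points) and of all probe sets tested (open diamonds) under 4 scalings of the arrays (x axis). The class medians and that of all probe sets move together; spike-in scaling, that is, scaling to the hybridization controls, raises all of them.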

How the data were processed

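The authors deposited one MAS5 signal intensity per probe set and array, per the labels, on a linear scale and in whole numbers; their version and scaling target were not stated in the sources used here. Labelling started from 1 ug of RNA. Intensities were used as deposited, as log2(signal + 16), a pseudocount that shrinks changes of dim genes. Of 15859 probe sets that are not controls, 12562 carried 1 symbol. After leaving out the dimmest 25% by mean, 11894 were fitted with limma 3.58.1 in R 4.3.3 (lmFit, eBayes with trend), and p was adjusted by Benjamini-Hochberg over all of them. Single array values were compared by exact permutation over 252 regroupings. The code was tested on simulated data. Every member was accounted for, and up to 3 called genes were named per further list. Values in every liver were given for called members and for 14 defining markers, except Marco, which had no probe set. They were also given for Cd74 and Lum, which were neither called nor among the defining markers. S100a9, Hbb, Alas2 and Krt19 were named in addition, after their values were seen. The members and lists were chosen with earlier results of these data known. Nothing says which rats shared a cage, so p-values measure only the spread between these samples. Arrays have no read depth, and 5 per group limit the precision. The alternatives were other pseudocounts, scalings, filters and fits, a replicate block, an exact rank-sum test, 1 probe set a gene, and each array left out in turn.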

Additional observations from a re-analysis of the deposited data

Results flagged for a closer look

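In 2 of 90 sets of 5 livers (45 marker probe sets in 2 groups), 1 liver stood far from the others by Dixon's ratio. Chance flags about 1 in 20. Lrat read 97 in vehicle animal 5, against 110 to 114 in the other vehicle livers. Col4a2 read 70 in RG3487 animal 1, against 49 to 54 in the other RG3487 livers.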

How the results depend on the processing

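The counts were 4 lower and 1 higher for macrophage, 2 and 0 for endothelial, and 1 and 1 for stellate and matrix probe sets. Spike-in scaling gave 2 lower macrophage, 0 lower endothelial and 5 higher stellate and matrix calls, with 6155 higher and 378 lower among all probe sets. Quantile normalization gave 0 higher and 2 lower stellate and matrix calls and 1429 higher among all, where the deposited scale gave 2443 higher and 852 lower. Arrays centred on their median gave 4 lower endothelial, 0 higher and 2 lower stellate and matrix calls, and 1359 higher and 1335 lower among all. The exact rank-sum test, limited to groups without overlap, gave 0 higher and 2 lower macrophage calls. It also gave 0 higher stellate and matrix calls and 533 lower among all. With the dimmest 50% left out, the Col1a1 probe set 1388116_at was no longer tested. Stellate and matrix calls were then 0 higher and 2 lower, and 2 were lower without a trend in eBayes and with array weights. Leaving out 1 array gave 2 to 5 lower macrophage, 1 to 3 lower endothelial, and 0 to 2 higher and 1 to 2 lower stellate and matrix calls. Among all probe sets the same fits gave 1809 to 2566 higher and 682 to 887 lower. No call of a single probe set turned its direction in any alternative. Beyond the filtered Col1a1 probe set, the cause of these moves was not tested. The replicate block, where numbers do not pair animals by the labels (correlations of deviations -0.037 to 0.174, and 2 of 5 RG3487 and 1 of 5 vehicle arrays best matched by their own number), gave 1 lower endothelial and 0 higher stellate and matrix calls. Dim probe sets limit what can be seen of Des, Acta2 and Pdgfrb.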
